A study of Homo sapiens with 4 samples.

Results

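2B-OlapR is an olaparib-resistant subline of the prostate cancer line C4-2B, and the comparison of these 2 lines covered 2 of the 4 libraries of the series. The genes described were all those whose mean over the 2 libraries reached 1 normalized CPM (counts scaled to the effective library size), which was 15527 of the 22637 genes listed. RNA sequencing had been performed on LNCaP, a castration-sensitive line, on its olaparib-resistant derivative LN-OlapR, on the castration-resistant line C4-2B and on 2B-OlapR, with 1 library per line. The resistant lines had been raised from their parental lines by about a year of chronic dosing with rising amounts of olaparib and were kept in medium with 5 μmol/L of the drug. For RNA, all 4 lines were labeled untreated and were plated without the selection agent, for 48 hours by the series description and for 72 hours by the study's methods. Both lines of the pair were labeled prostatic adenocarcinoma and parental or olaparib-resistant. Each line was represented by 1 culture, so selection by the drug, time in culture and drift between cultures cannot be told apart, differences below rest on single libraries and carry no p-value. LN-OlapR and LNCaP share no library with this pair and are given beside it where they differ.

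Olaparib blocks PARP1 and PARP2, enzymes that mark DNA breaks with chains of ADP-ribose so that repair proteins gather there. Cells that cannot repair double-strand breaks by homologous recombination are most sensitive to it. C4-2B descends from LNCaP and is a common laboratory model of castration-resistant disease.

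Total counts were 19950537 for C4-2B and 20796946 for 2B-OlapR. Values are normalized CPM, or the log2 ratio of 2B-OlapR to C4-2B with 0.5 counts added to each library. The interval after a ratio is at the 95% level and covers counting error only, not the difference between cultures. A gene was called changed at 2-fold, and 3 counts, the most that a count of 0 allows, were equal to 0.147 CPM in C4-2B and 0.145 CPM in 2B-OlapR. A ratio against 0 counts depends on the 0.5 counts added, so the fold is then given as a bound against those 3 counts. Luminal prostate markers marked both lines as labeled. All 14 were expressed and summed to 6776 CPM in C4-2B and 5318 CPM in 2B-OlapR. Among markers of other cells, 5 of 12 neuroendocrine, 3 of 7 basal, 5 of 9 fibroblast and 2 of 7 leukocyte genes were listed at all, and the sum of each of these lists was between 2.75 and 33.0 CPM in both lines, with 1 listed neuroendocrine marker at 0 in 2B-OlapR and 1 listed fibroblast marker at 0 in C4-2B. Of 10 markers of mesenchymal-like lines, 4 were listed, with a sum of 49.5 CPM in C4-2B and 14.96 CPM in 2B-OlapR.

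In 2B-OlapR, 687 genes (4.42%) were higher than in C4-2B by 2-fold or more and 877 (5.65%) were lower by as much. Together these were 10.1% of the genes, and the counts called in each gene list below stand against these shares. Among the lower genes were 11 of 16 Y-linked genes, which are not described further, and 866 genes remained without them. The change of the typical gene was small, as the median log2 ratio was -0.0003 and the quartiles were -0.32 and 0.28. At the far ends, 210 genes were higher and 218 lower by 4-fold or more, and 53 and 40 genes reached 16-fold. Among the 10015 genes with a mean of at least 10 CPM, 163 were 2-fold higher and 256 were 2-fold lower. The counting interval lay wholly past 2-fold for 350 higher and 448 lower genes. By class, 512 of 12211 protein-coding genes were higher and 688 were lower (4.19% and 5.63%), whereas 95 of 1470 long noncoding RNAs were higher and 100 were lower (6.46% and 6.8%). The plot of ratio against level places the named genes among all others.

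**Figure D1:**
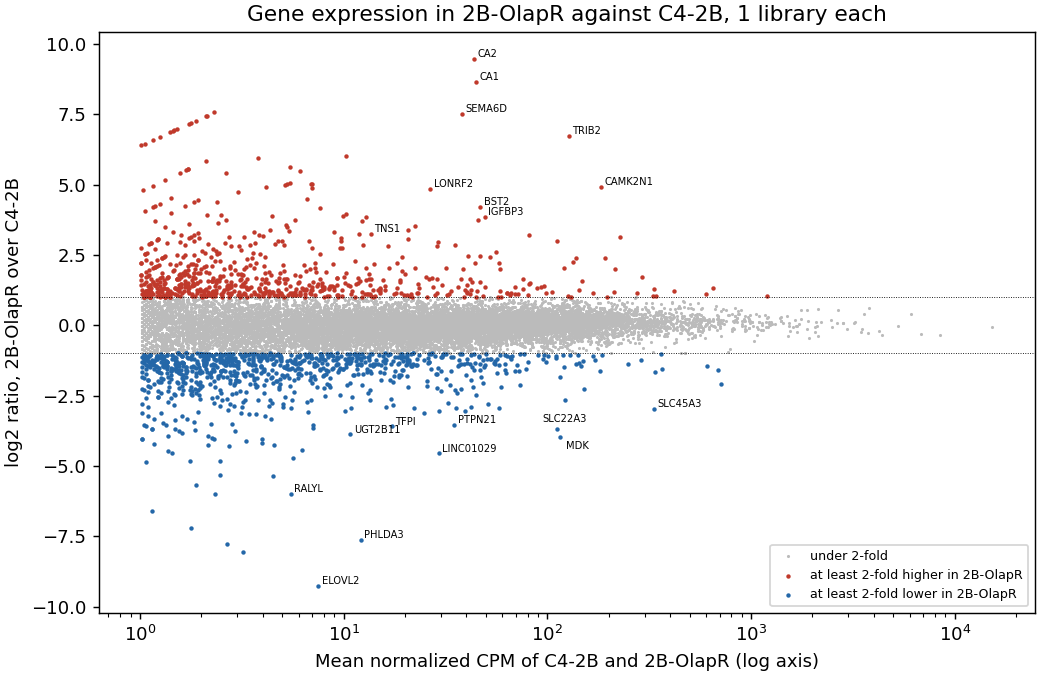
Each point is 1 of the analyzed genes without the Y-linked ones; the horizontal axis is the mean normalized CPM of C4-2B and 2B-OlapR (log axis), the vertical axis is the log2 ratio of 2B-OlapR to C4-2B, dotted lines mark 2-fold, and selected genes are labeled. The 687 higher genes reach a log2 ratio of 9.48 at CA2, and the lowest ratio is -9.28 at ELOVL2, with 0 counts in 2B-OlapR.

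The highest ratios belonged to carbonic anhydrases, enzymes that hydrate carbon dioxide. CA2 had 2 counts (0.0977 CPM) in C4-2B against 1804 counts (87.1 CPM) in 2B-OlapR, a log2 ratio of 9.48 (7.69 to 11.27). CA1 went from 4 to 1837 counts, with a ratio of 8.66 (7.32 to 9.99). Neither gene had a single count in LNCaP or LN-OlapR, so in this series they were expressed above the limit of 3 counts in 2B-OlapR and, for CA1 with 4 counts, barely in C4-2B. The other members of the cluster on chromosome 8 (GRCh38, 85220587 to 85481493) were higher too. CA13 was at 12.4 CPM in C4-2B and 68.9 CPM in 2B-OlapR (ratio 2.48, 2.28 to 2.67), and CA3 had 2 and 156 counts (5.95, 4.15 to 7.75). The antisense gene CA3-AS1 had 0 and 58 counts, at least 19.1-fold higher. It overlaps CA3, so how reads were divided between them is uncertain. These 5 neighbours formed the only run of called genes on the chromosome. In LN-OlapR against LNCaP CA13 was at 0.67, and the other 4 were under the level of analysis.

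Other genes among the 15 highest ratios were of several kinds. TRIB2, a pseudokinase that acts as a scaffold for protein degradation, was at 2.35 CPM in C4-2B and 252 CPM in 2B-OlapR (ratio 6.73, 6.32 to 7.14) and had 0 counts in LNCaP and LN-OlapR. SEMA6D, a transmembrane semaphorin, had 8 counts in C4-2B against 1574 counts in 2B-OlapR (7.52, 6.54 to 8.49). In the other pair it had 0 counts in LNCaP and 57 in LN-OlapR, so the direction was shared while the level was lower. CAMK2N1, an inhibitor of calcium/calmodulin-dependent kinase II, was at 11.6 CPM in C4-2B and 354 CPM in 2B-OlapR (4.93, 4.74 to 5.11), and LN-OlapR was below LNCaP, with 8.87 against 17.1 CPM. LONRF2, which has a RING finger domain, was at 1.76 and 51.5 CPM (4.85, 4.38 to 5.33). IGFBP3, which binds insulin-like growth factors outside the cell, was at 6.35 CPM in C4-2B and 92.3 CPM in 2B-OlapR (3.86, 3.60 to 4.11), and was higher in LN-OlapR as well (1.38, 1.09 to 1.67). GRIN3A, a subunit of the NMDA glutamate receptor, went from 6.30 to 85.1 CPM (3.75, 3.49 to 4.01).

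The 15 highest also included FRAS1, an extracellular matrix protein (3.96), DHRS2, a short-chain dehydrogenase (3.83), PTPRK, a receptor tyrosine phosphatase (3.54), PTGER4, a receptor of prostaglandin E (3.38), TNS1, a focal adhesion protein (3.23), and BST2, described below (4.22). PTPRK and TNS1 were also 2-fold higher in the LN pair, at 1.55 and 4.05. FRAS1 and BST2 were under the level of analysis in that pair, and DHRS2 was at -0.46 there.

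**Figure D2:**
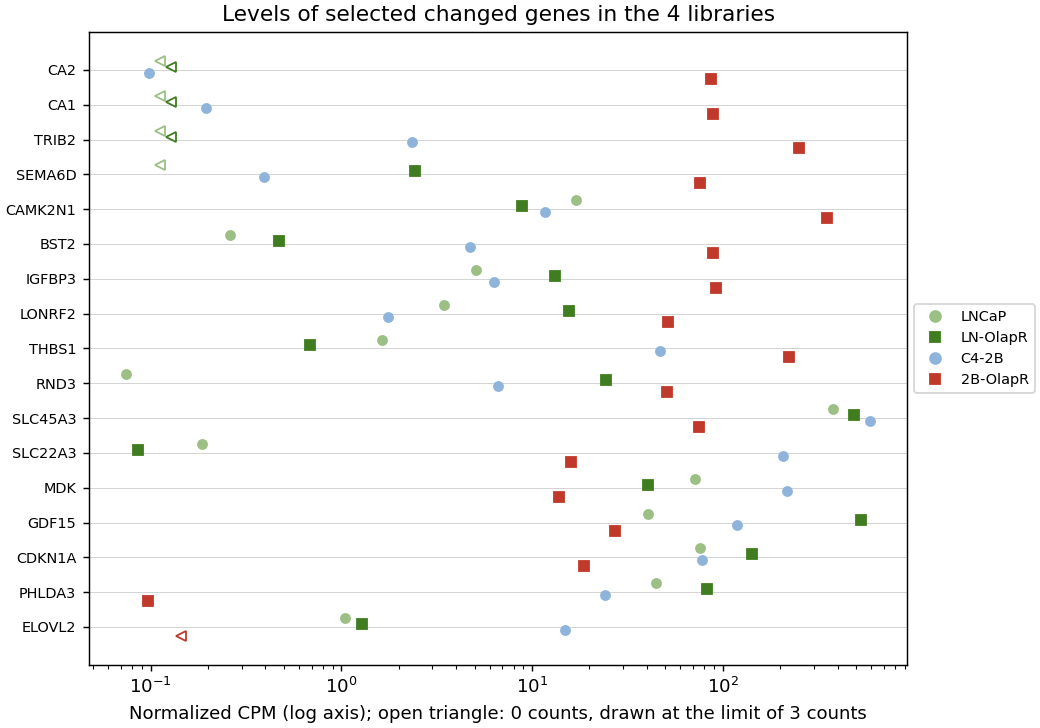
Normalized CPM (log axis) of 17 selected genes in each of the 4 libraries, 1 symbol per library, with open triangles at the limit of 3 counts for libraries with 0 counts. For the 10 upper genes 2B-OlapR is the highest of the 4 libraries, as with CA2 at 87.1 CPM, and for SLC45A3, GDF15, CDKN1A and PHLDA3 it is the lowest.

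Of the genes averaging 10 CPM or more that were not Y-linked, the lowest ratio was at PHLDA3, which restrains AKT signaling. It had 493 counts (24.1 CPM) in C4-2B against 2 counts in 2B-OlapR, a ratio of -7.64 (-9.44 to -5.85), while LNCaP and LN-OlapR held 44.7 and 82.7 CPM. MDK, which encodes the secreted growth factor midkine, was at 217 CPM in C4-2B and 13.9 CPM in 2B-OlapR (-3.96, -4.14 to -3.79). SLC22A3, an organic cation transporter, was at 207 CPM in C4-2B and 15.97 CPM in 2B-OlapR (-3.69, -3.85 to -3.53), against 0.186 CPM in LNCaP and 0.0857 CPM in LN-OlapR. SLC45A3 encodes prostein, a prostate membrane protein induced by androgen. It had 592 CPM in C4-2B and 74.7 CPM in 2B-OlapR (-2.99, -3.06 to -2.91), and differed less and the other way in the LN pair, with 380 CPM in LNCaP and 485 CPM in LN-OlapR.

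Several of the lowest genes were 2-fold lower in both resistant lines. TFPI, an inhibitor of the tissue factor pathway of coagulation, was at 31.8 CPM in C4-2B and 2.61 CPM in 2B-OlapR (-3.60), and at 158 and 8.57 CPM in LNCaP and LN-OlapR (-4.20). PTPN21, a cytoplasmic tyrosine phosphatase, was at -3.54 and -2.71, PTGFR, the prostaglandin F receptor, at -3.05 and -2.35, LINC01029, a long noncoding RNA, at -4.55 and -3.06, and JDP2, an AP-1 repressor, at -2.96 and -1.12, with the C4-2B background first. SLC25A29, a mitochondrial carrier of basic amino acids, and RBPMS, an RNA-binding protein, were at -3.12 and -3.05 in 2B-OlapR but at -0.52 and -0.45 in LN-OlapR. C2orf72 was lower in 2B-OlapR (-3.04, -3.26 to -2.81) and higher in LN-OlapR (2.02, 1.76 to 2.29).

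A gene was taken as on-off if it had at most 3 counts in 1 line and at least 10 CPM in the other. There were 8, of which 4 were Y-linked. The others were CA2, PHLDA3, ELOVL2 and RALYL. ELOVL2, an elongase of polyunsaturated fatty acids, had 306 counts (14.9 CPM) in C4-2B against 0 in 2B-OlapR, at least 103-fold lower. RALYL, an RNA-binding protein gene, had 222 counts in C4-2B against 3 in 2B-OlapR (-6.01, -7.53 to -4.49), and was similarly low in LN-OlapR, with 557 counts in LNCaP and 13 in LN-OlapR (-5.16, -5.94 to -4.38).

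CDKN1A encodes the cell cycle inhibitor p21. It was at 77.8 CPM in C4-2B and 18.6 CPM in 2B-OlapR (-2.06, -2.22 to -1.90) and at 76.1 and 142 CPM in LNCaP and LN-OlapR. GDF15, a secreted stress cytokine, was at 119 CPM in C4-2B and 27.2 CPM in 2B-OlapR (-2.13, -2.26 to -1.99), and at 40.7 and 532 CPM in LNCaP and LN-OlapR (3.71). For both genes 2B-OlapR held the lowest level of the 4 libraries and LN-OlapR the highest.

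Other genes of growth arrest, apoptosis and stress were 2-fold lower as well, among them SPATA18, which acts in mitochondrial quality control (-2.26), TP53I3, a quinone oxidoreductase (-1.60), SESN2, an inhibitor of mTORC1 (-1.38), the proapoptotic genes BBC3 (-1.24) and BAX (-1.01), and BTG2, an antiproliferative gene (-1.06). BAX stood just past 2-fold and was short of it when libraries were scaled by their upper quartiles. In the LN pair SPATA18, TP53I3, SESN2, BBC3 and BAX were at 0.14, 0.85, 0.69, 0.67 and 0.27. BBC3 and BAX belong to the BCL2 family, of which 3 of 16 genes were 2-fold lower and 0 higher. Against these stand 5.65% and 4.42% of all genes, and 6 of the 16 were above 0, with a median of -0.19.

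Genes of the integrated stress response and the unfolded protein response were more often lower than higher. Of 31 genes, 7 were 2-fold lower and 0 were higher, against 5.65% and 4.42% of all genes. Of the 31, 26 were below 0, with a median of -0.42, whereas the LN pair had a median of -0.04. GDF15 and SESN2, given above, are on this list. The others were DDIT4, an inhibitor of mTORC1 (181 CPM in C4-2B and 50.7 CPM in 2B-OlapR, -1.84), CHAC1, a glutathione-degrading enzyme (-1.65), ALDH1L2, a mitochondrial folate enzyme (-1.42), the stress regulator NUPR1 (-1.28) and the lipoprotein receptor VLDLR (-1.02). The highest was DNAJB9, a chaperone of the endoplasmic reticulum, at 0.62. DDIT4 also stands among hypoxia-induced genes, of which 5 of 21 were 2-fold lower and 2 were higher, with a median of -0.38. VEGFA, the angiogenic growth factor, went from 174 to 83.9 CPM (-1.05, -1.14 to -0.97), short of 2-fold once the median of its chromosome was subtracted, and the higher ones were EPAS1, which encodes HIF-2α (1.42, 0.52 to 2.32), and the membrane-bound carbonic anhydrase CA12 (1.35, 1.21 to 1.49). Only 3 of the 5 lower calls were left after the median of each gene's chromosome was subtracted.

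Genes of DNA repair, through which PARP inhibition acts, had few calls. Among 39 genes of homologous recombination and the Fanconi anemia pathway, 0 were 2-fold higher and 0 lower, against 4.42% and 5.65% of all genes. Calls were rarer among the 10015 genes averaging 10 CPM or more, with 163 higher and 256 lower, so the share to compare with depends on level. Ratios of the list ranged from -0.85 at RAD51B to 0.45 at UBE2T. BRCA1 was at 67.1 and 63.0 CPM (-0.09, -0.20 to 0.02) and BRCA2 at 53.2 and 52.6 CPM (-0.02, -0.14 to 0.11) in C4-2B and 2B-OlapR. Among 34 PARP, PAR hydrolysis and base excision genes, 0 were called either way, with a range from -0.93 at PARP11 to 0.73 at PARP10. PARP1, the main drug target, was at 600 CPM in C4-2B and 520 CPM in 2B-OlapR (-0.21, -0.25 to -0.17), and PARG, which degrades the ADP-ribose chains, was at 42.9 and 35.3 CPM (-0.28, -0.42 to -0.14). The RNA levels of the drug's target and of the enzyme that reverses it thus differed by less than 2-fold.

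Of 29 genes of end joining and fork protection, 2 were 2-fold higher and 0 lower. SHLD1, a shieldin subunit that limits end resection, was at 1.27 and 3.38 CPM (1.39, 0.75 to 2.04), and XRCC4, which holds the ligase of nonhomologous end joining, at 2.79 and 6.71 CPM (1.26, 0.82 to 1.70). XRCC4 lies on chromosome 5, where most genes were higher, and was below 2-fold once the chromosome median was subtracted. TP53BP1 (53BP1), which recruits shieldin, was the lowest of this list at -0.79. Of 38 DNA replication genes 0 were called, with a median of 0.11, and of 30 mitosis genes 1 was, CENPE, a kinesin of the kinetochore, at -1.24. The lists of 27 NRF2 targets and 14 housekeeping genes had no call either.

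**Figure D3:**
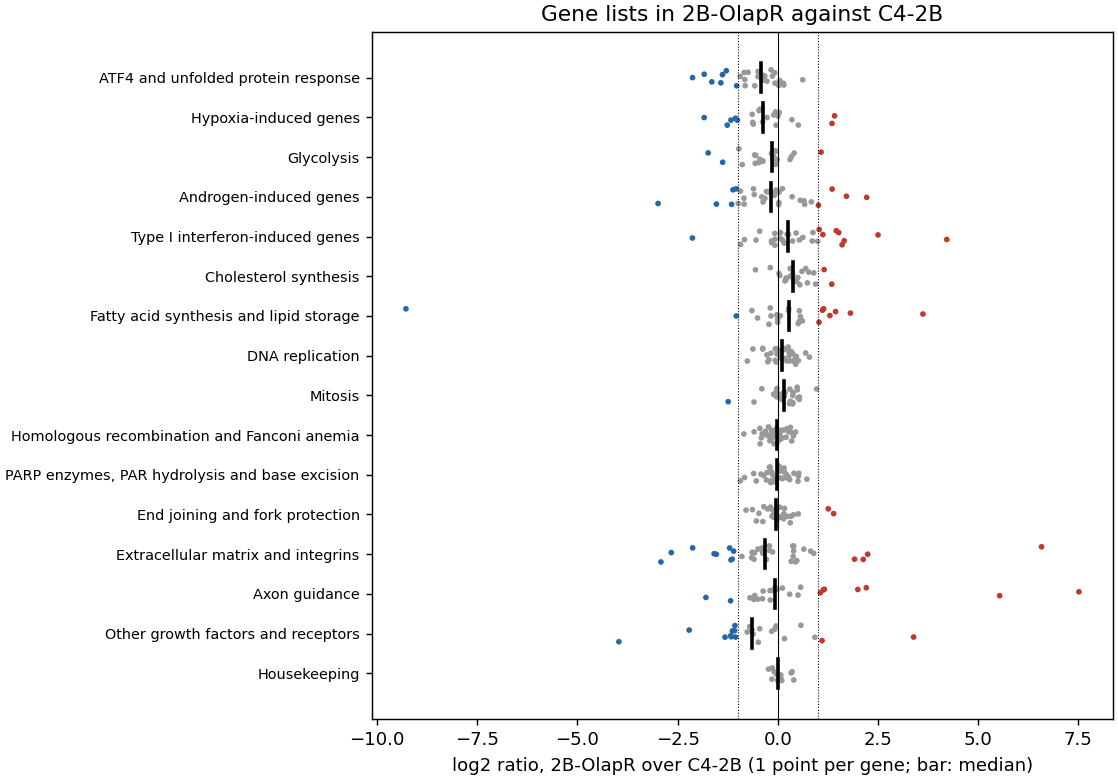
Log2 ratio of 2B-OlapR to C4-2B for every analyzed member of 16 gene lists (1 point per gene, scattered vertically for display only), with black bars at the median, dotted lines at 2-fold, red points 2-fold higher and blue points 2-fold lower. The integrated stress and unfolded protein response list has 7 blue points and no red one, and the homologous recombination list has neither.

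Type I interferon-induced genes were more often higher than lower. Of 32 analyzed, 8 were 2-fold higher and 1 was lower, against 4.42% and 5.65% of all genes, with a median of 0.26. In the LN pair 2 of 30 were higher and 4 lower, with a median of -0.25. BST2 encodes tetherin, which holds budding viruses at the cell surface. It was at 4.74 CPM in C4-2B and 88.6 CPM in 2B-OlapR (4.22, 3.92 to 4.51), against 0.260 and 0.472 CPM in LNCaP and LN-OlapR, so both lines of the C4-2B background were above both lines of the other. LGALS3BP, a secreted galectin-binding glycoprotein, was at 12.6 and 39.7 CPM (1.66, 1.46 to 1.86), and OAS3, an oligoadenylate synthetase that answers double-stranded RNA, at 31.6 and 64.7 CPM (1.04, 0.90 to 1.17). OAS1, of the same family, had 9 and 54 counts (2.50, 1.51 to 3.50).

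CMPK2, a mitochondrial nucleotide kinase, was at 1.52, the RNA sensor IFIH1 (MDA5) at 1.13, IFIT1 and IFIT2, which bind viral RNA, at 1.60 and 1.46. IFIT1 rested on 12 and 38 counts, with an interval from 0.68 to 2.53. The lower gene was IFITM2, a membrane protein that blocks viral entry, with 19.9 CPM in C4-2B and 4.54 CPM in 2B-OlapR (-2.13, -2.45 to -1.81). It has close paralogs among which reads can be divided. The cause of these levels was not tested.

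Promoters of 3 of the higher interferon-induced genes are shown because they hold the motif made of GAAA, any 2 bases and GAAA, the core that interferon regulatory factors and the ISGF3 complex bind in the interferon-stimulated response element. Each sequence runs 5′ to 3′ on the strand of the gene, from 250 bases before to 50 bases after the start, from RefSeq on GRCh38.p14, with the motif in capitals. BST2 lies at chr19:17405581-17405880 on the minus strand, LGALS3BP at chr17:78979874-78980173 on the minus strand and OAS3 at chr12:112938224-112938523 on the plus strand.
BST2: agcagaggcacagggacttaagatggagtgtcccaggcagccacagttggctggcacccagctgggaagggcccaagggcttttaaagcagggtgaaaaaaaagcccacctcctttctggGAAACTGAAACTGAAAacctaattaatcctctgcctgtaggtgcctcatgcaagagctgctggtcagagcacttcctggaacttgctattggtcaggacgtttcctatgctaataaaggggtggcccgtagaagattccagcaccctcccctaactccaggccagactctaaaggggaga
LGALS3BP: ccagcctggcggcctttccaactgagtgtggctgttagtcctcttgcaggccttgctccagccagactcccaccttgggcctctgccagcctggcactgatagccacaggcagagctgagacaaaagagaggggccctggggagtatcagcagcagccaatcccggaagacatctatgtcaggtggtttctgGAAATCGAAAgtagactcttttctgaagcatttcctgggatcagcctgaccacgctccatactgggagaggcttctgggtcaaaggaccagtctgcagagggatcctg
OAS3: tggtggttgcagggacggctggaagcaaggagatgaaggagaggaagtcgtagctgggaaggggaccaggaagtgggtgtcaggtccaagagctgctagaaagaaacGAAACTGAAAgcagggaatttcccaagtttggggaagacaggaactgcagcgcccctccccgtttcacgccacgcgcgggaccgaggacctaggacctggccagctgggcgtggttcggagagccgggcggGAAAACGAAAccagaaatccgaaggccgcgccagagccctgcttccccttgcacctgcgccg
In BST2 the capitals are a pair of overlapping copies that begin 130 and 124 bases before the start, and OAS3 holds copies at 143 and 12 bases before it. LGALS3BP has 1 copy at 58 bases before the start. Both strands were searched, and 1255 of all 35116 promoters of this length (3.57%) hold the motif, or 1195 of 27305 genes (4.38%). A promoter was given for 25 of the 32 interferon-induced genes, 16 of them with the motif, and for 7 of the 8 higher ones, 5 of them with it. As the list is of interferon-induced genes, the share does not bear on which of them were higher, and a match is a run of letters, not a site shown to be bound.

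Lipid genes moved apart. Of 25 genes of fatty acid synthesis and storage, 7 were 2-fold higher and 2 lower, against 4.42% and 5.65% of all genes. Their median was 0.27. SCD, the main desaturase that makes oleic acid, was at 380 CPM in C4-2B and 822 CPM in 2B-OlapR (1.12, 1.08 to 1.15). ELOVL6, an elongase of saturated fatty acids, was at 8.80 and 31.0 CPM (1.81, 1.58 to 2.05), whereas LN-OlapR was below LNCaP (-2.22, -2.39 to -2.05). The others above 2-fold included ACSL4, which activates arachidonic acid, with 7 and 93 counts (3.62, 2.55 to 4.70), the desaturase SCD5 (1.44), the phosphatidate phosphatase LPIN1 (1.30) and the acyl-CoA synthetase ACSL1 (1.14). ELOVL2 with 0 counts was on the lower side, so the elongases of this list went both ways.

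All but 2 of 24 cholesterol synthesis genes were above 0, with a median of 0.39 against -0.21 in the LN pair, and 2 were 2-fold higher, among them STARD4, a sterol carrier (1.35, 0.98 to 1.72). STARD4 and ACSL1 were short of 2-fold once the median of their chromosome was subtracted. Of 26 fatty acid oxidation genes, 0 were higher and 3 were lower. ACADL, the long-chain acyl-CoA dehydrogenase, was at 74.5 CPM in C4-2B and 10.04 CPM in 2B-OlapR (-2.89, -3.10 to -2.68), PPARGC1A, a coactivator of mitochondrial biogenesis, at 3.13 and 0.724 CPM (-2.08, -2.88 to -1.28), and the peroxisomal oxidase ACOX2 at -1.86. The median of that list was 0.16, so these 3 stood apart from most of their list.

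Growth factors and receptors outside the EGFR and IGF families were more often lower than higher. Of 23 analyzed, 9 were 2-fold lower and 2 were higher, against 5.65% and 4.42% of all genes. Of the 23, 18 were below 0, with a median of -0.64. MDK led the lower ones. It was followed by the ephrin receptors EPHA3 (97.5 and 21.0 CPM; -2.21, -2.36 to -2.06) and EPHA7 (-1.32), the hepatocyte growth factor receptor MET (-1.17) and the fibroblast growth factor receptor FGFR1 (-1.16). EPHA3, EPHA7 and FGFR1 were 2-fold lower in LN-OlapR too, at -2.77, -1.87 and -1.52. FGF13, an intracellular member of the fibroblast growth factor family, was higher in both pairs, at 3.39 and 4.36.

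Of 8 genes of the EGFR family and its ligands, 2 were 2-fold higher and 0 lower, with 4 below 0 and a median of -0.23, and of 8 genes of the IGF system 3 were higher and 1 lower, with 4 below 0. EGFR was at 196 CPM in C4-2B and 474 CPM in 2B-OlapR (1.28, 1.22 to 1.33), and its ligand TGFA at 1.12 and 3.81 CPM (1.74, 1.08 to 2.40), while TGFA was lower in LN-OlapR (-2.29). IGF1R was at 173 and 379 CPM (1.13, 1.07 to 1.19) and the adaptor IRS1 at 11.8 and 38.7 CPM (1.71, 1.51 to 1.92). The ligand IGF1 was at 78.3 CPM in C4-2B and 30.7 CPM in 2B-OlapR (-1.35, -1.48 to -1.22), and fell short of 2-fold once the median of chromosome 12 was subtracted.

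Of 26 genes of TGF-β and BMP signaling, 6 were higher and 4 lower, against 4.42% and 5.65% of all genes, with a median of 0.14. TGFBR2, the type II receptor, had 0 counts in C4-2B against 61 in 2B-OlapR, at least 20.1-fold higher, and the ligand TGFB2 had 14 and 102 counts (2.80, 2.01 to 3.60). ID4 and ID2, inhibitors of helix-loop-helix factors and BMP targets, were at 2.42 and 1.33, and the inhibitory SMAD6 at 1.34. BMP5 had 131 counts in C4-2B against 0 in 2B-OlapR, at least 44.2-fold lower, and 0 in LNCaP and LN-OlapR. C4-2B was therefore the only one of the 4 libraries with BMP5 counts.

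Matrix and adhesion genes were called both ways. Of 36 analyzed, 9 were lower and 4 higher, against 5.65% and 4.42% of all genes, with a median of -0.33. The lower ones held 4 chains of laminin, the main glycoprotein of basement membranes, and another of its components. LAMB1 was at 23.3 CPM in C4-2B and 3.67 CPM in 2B-OlapR (-2.66, -3.01 to -2.31), LAMA1 was at -2.92, LAMC3 at -1.59 and LAMB2 at -1.10. The proteoglycan perlecan, HSPG2, was at 54.3 and 12.5 CPM (-2.12, -2.32 to -1.93), and the fibronectin receptor subunit ITGA5 at -1.53. On the higher side, THBS1, which encodes the adhesive glycoprotein thrombospondin, was at 46.7 CPM in C4-2B and 221 CPM in 2B-OlapR (2.24, 2.14 to 2.34). COL12A1, a fibril-associated collagen, had 0 and 48 counts, at least 15.8-fold higher, and was higher in LN-OlapR too (2 and 268 counts), and the syndecan SDC2 was at 2.13 and 1.92 in the pairs.

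Axon guidance genes, many of which are receptors and ligands of cell migration, had a median of -0.07, with 15 of 26 below 0. Of the 26, 7 were 2-fold higher and 2 lower, against 4.42% and 5.65% of all genes. Beside SEMA6D the higher ones were led by SEMA3D, with 1 and 70 counts (5.54, 3.20 to 7.87), SEMA3C, a secreted semaphorin, at 15.7 and 72.6 CPM (2.21, 2.04 to 2.38), and the netrin receptor UNC5B (2.00, 1.58 to 2.42). SEMA4C (-1.79) and SEMA3B (-1.18) were lower. Semaphorins thus stood on both sides. Among 20 genes of the cytoskeleton and its small GTPases, RND3, an atypical small GTPase, was at 6.597 and 51.2 CPM (2.95, 2.70 to 3.21) and MYH14, a nonmuscle myosin, at 8.55 and 61.6 CPM (2.85, 2.62 to 3.07). Both were also higher in LN-OlapR, at 8.03 (6.24 to 9.83, with 2 counts in LNCaP) and 3.14. RHOU, another atypical small GTPase, was lower in both, at -1.64 and -1.25.

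Of 21 calcium and potassium channel genes, 6 were 2-fold higher and 0 lower, against 4.42% and 5.65% of all genes, with a median of 0.44. KCNC4, a voltage-gated potassium channel, was at 0.244 and 11.97 CPM (5.48, 4.26 to 6.70). KCNN2, a calcium-activated channel, was at 6.45 and 30.1 CPM (2.22, 1.95 to 2.49), and the cold receptor TRPM8 at 15.4 and 39.6 CPM (1.36, 1.17 to 1.54). Of 20 such genes in the LN pair, 9 were higher and 0 were lower.

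Genes induced by androgen did not share a direction. Of 34 analyzed, 4 were 2-fold higher and 5 lower, with a median of -0.17, against 11 higher and 1 lower of 35 in the LN pair, with a median of 0.49. Those higher were KCNN2, TRPM8, the kallikrein KLK4 (137 and 448 CPM; 1.71, 1.65 to 1.77) and the protease TMPRSS2 (1.01, 0.95 to 1.08), which was short of 2-fold with total-count scaling. Those lower included SLC45A3, ADAM7, a membrane metalloprotease homolog (-1.53), and ALDH1A3, which makes retinoic acid (-1.15). The pioneer factor GATA2 was at 253 and 582 CPM (1.20, 1.16 to 1.25). KLK3, which encodes prostate-specific antigen and was named after its values were seen, was at 2412 CPM in C4-2B and 1870 CPM in 2B-OlapR (-0.37, -0.39 to -0.35). Of 12 androgen-repressed genes, 4 were lower, and all 4 were UGT2B enzymes, which inactivate androgens by glucuronidation.

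The UGT2B genes were lower in both resistant lines. UGT2B11 was at 20.2 CPM in C4-2B and 1.35 CPM in 2B-OlapR (-3.88), UGT2B28 at 13.1 and 1.11 CPM (-3.53), UGT2B17 at 5.67 and 0.869 CPM (-2.67) and UGT2B15 at 16.3 and 2.90 CPM (-2.49). The LN pair had ratios of -6.10, -4.24, -7.04 and -6.48 in the same order. These genes are alike in sequence, so the division of reads among them is uncertain.

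The changed genes were not spread evenly over the chromosomes. Positions in GRCh38 were found for 15010 of the analyzed genes (96.7%). Over 12190 protein-coding genes on chromosomes other than Y the median ratio was 0.005, yet it was -0.43 on chromosome 14, -0.40 on 18 and -0.35 on 12, and 0.38 on chromosome 5 and 0.22 on 4. On chromosome 14, 86.2% of 413 genes were below 0 and 13.1% were 2-fold lower, and on chromosome 12, 84.4% of 623 genes were below 0 and 11.2% were 2-fold lower, against 5.58% over these chromosomes together. On chromosome 5, 18.8% of 531 genes were below 0. Medians of the LN pair on chromosomes 14, 18, 12, 5 and 4 were -0.02, -0.07, -0.06, 0.07 and -0.07. Its largest deviation was on chromosome 7, at 0.24. DNA copy number was not measured, so its part in these shifts was not tested.

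**Figure D4:**
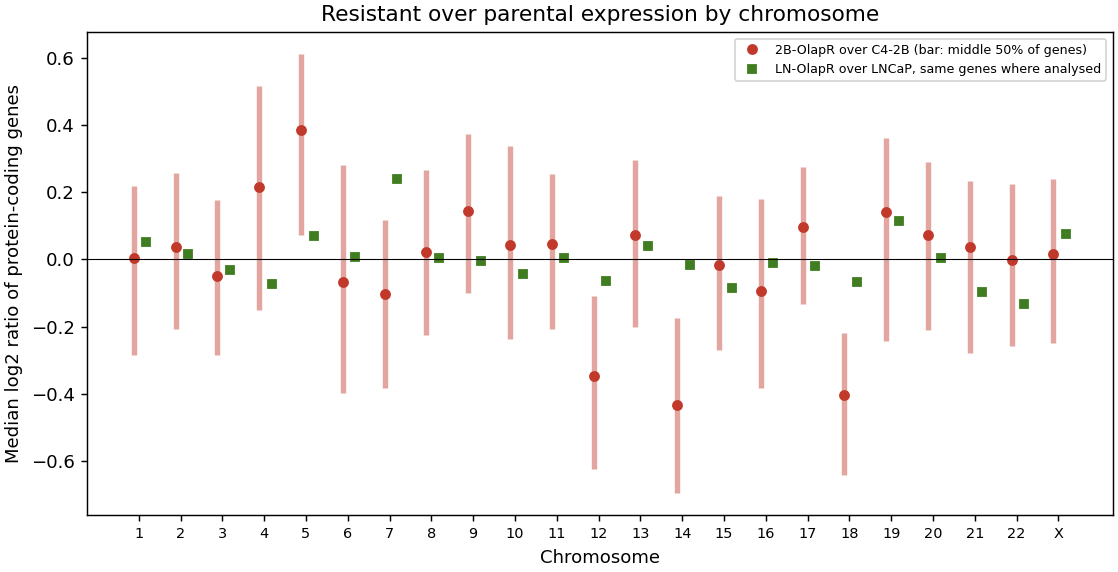
Median log2 ratio of protein-coding genes on each chromosome for 2B-OlapR over C4-2B (red circles, with bars over the middle 50% of genes) and for LN-OlapR over LNCaP (green squares). In the 2B pair chromosomes 12, 14 and 18 lie between -0.43 and -0.35 and chromosome 5 at 0.38, where the LN pair lies between -0.07 and 0.07.

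Some shifts ran along whole chromosomes and others along parts. The genes were cut into 477 blocks of 25 neighbours. All 24 blocks of chromosome 12, all 16 of chromosome 14 and all 7 of chromosome 18 had a median below 0, and 18, 15 and 6 of them were at or under -0.25. On chromosome 5, 19 of 21 blocks were at or over 0.25, and on chromosome 4, 10 of 17. Those 10 were the blocks up to position 98930637, and 5 of the other 7 had a median below 0. On chromosome 6 block medians ran from -0.59 to 0.62. Over the genome, 70 blocks were at or under -0.25 and 66 at or over 0.25 in the 2B pair, compared with 25 and 53 in the LN pair. With the median of its chromosome subtracted from each gene, 649 genes were 2-fold higher and 837 lower, close to the counts without it.

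Within chromosomes, 31 runs of at least 3 neighbouring analyzed genes were called in the same direction, 11 higher and 20 lower, with 109 genes in all. Of the 20 lower runs, 9 lay on chromosomes 12, 14 and 18, where most genes were below 0 and lower calls were more frequent. How runs were sought was chosen after the values had been seen. A run of 6 higher genes on chromosome 1, from 19882513 to 20651511, held OTUD3, PLA2G2A, CAMK2N1, MUL1, FAM43B and PINK1. PLA2G2A, a secreted phospholipase, had 6 counts in C4-2B against 220 in 2B-OlapR (5.07, 3.94 to 6.19), and MUL1, a mitochondrial ubiquitin ligase, was at 24.8 and 56.3 CPM (1.18, 1.03 to 1.33). None of the 6 was called higher in LN-OlapR, where a call needs 2-fold and a mean of 1 CPM, so smaller increases are not counted. The study itself reported more PINK1 RNA in LN-OlapR than in LNCaP, by sequencing and by qRT-PCR. A run of 5 on chromosome 11, from 110429883 to 111455630, held FDX1, ARHGAP20, POU2AF2, COLCA1 and POU2AF1. COLCA1 was at 46.6 CPM in C4-2B and 407 CPM in 2B-OlapR (3.13, 3.03 to 3.22), and POU2AF1, a lymphoid coactivator, had 0 and 60 counts, at least 19.7-fold higher. FDX1, the ferredoxin of mitochondrial steroid synthesis, was at 42.8 and 120 CPM (1.48, 1.37 to 1.59).

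On the lower side, DSC2, DSC1 and DSG2 formed a run on chromosome 18, from 31058840 to 31549008. They encode desmosomal cadherins, which join epithelial cells. DSG2 was at 199 CPM in C4-2B and 75.9 CPM in 2B-OlapR (-1.39, -1.48 to -1.31), DSC2 was at -1.71 and DSC1 at -2.79. These ratios are given without subtraction of the median of chromosome 18, which was -0.405. On chromosome 14, from 75278774 to 75663214, the run held JDP2 and FOS, both of the AP-1 family, with FLVCR2. FOS had 41 and 3 counts (-3.59, -5.16 to -2.01). TMPRSS11E, a serine protease (60 and 12 counts; -2.29, -3.17 to -1.41), and the 4 UGT2B genes on chromosome 4 made up the only run of 5 or more that was called in full in LN-OlapR too.

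Zinc finger genes formed 6 of the 20 lower runs, all on chromosome 19. These genes, named ZNF or ZSCAN, encode DNA-binding proteins, many of which repress transposable elements. Of 215 analyzed on chromosome 19, 41 (19.1%) were 2-fold lower and 0 were higher, with a median of -0.43. The 695 other protein-coding genes of the chromosome had 39 higher and 20 lower, with a median of 0.23, so the chromosome as a whole was not lower. Elsewhere in the genome, 15 of 229 zinc finger genes were lower and 5 were higher. Between 19 and 24 Mb on chromosome 19, 16 of 26 were lower, with a median of -1.19. There ZNF257 had 76 counts in C4-2B against 1 in 2B-OlapR (-5.69, -8.02 to -3.36), ZNF208 had 43 and 1 (-4.88, -7.22 to -2.53), and ZNF43 was at 13.8 and 2.41 CPM (-2.50, -2.93 to -2.07). In the LN pair, 3 of 212 zinc finger genes of the chromosome were lower and 1 was higher. Their median there was -0.17, against 0.17 for the other protein-coding genes of the chromosome, so the direction was shared and the shift smaller. The family is large and alike in sequence, so reads of single members are uncertain, and the set was chosen after its values were seen.

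Genes of further lists are given singly. TET1, which oxidizes 5-methylcytosine, was at 5.57 and 0.820 CPM (-2.73), and the methyltransferase DNMT3A at 26.6 and 10.2 CPM (-1.38, -1.61 to -1.15), and both were lower in LN-OlapR as well, at -1.02 and -1.47. Among feedback genes of MAPK signaling, the phosphatase DUSP5 was higher (2.44 and 16.6 CPM; 2.76, 2.33 to 3.18) and DUSP4 lower (56.5 and 8.25 CPM; -2.77). VIM, which encodes the mesenchymal filament vimentin, was at 41.8 CPM in C4-2B and 9.41 CPM in 2B-OlapR (-2.15), and at 57.0 and 1.46 CPM in LNCaP and LN-OlapR (-5.27). Of 15 Notch signaling genes, 2 were higher and 2 lower, against 4.42% and 5.65% of all genes, with 9 below 0 and a median of -0.17. The Notch target HES1 was higher in both pairs, at 1.54 and 2.44, while HES2 (-3.14) and LFNG (-1.83) were lower in 2B-OlapR. GAGE1, a cancer-testis antigen of a family with near-identical copies, had 109 counts in C4-2B against 0 in 2B-OlapR, at least 36.8-fold lower. CYP11A1, which makes pregnenolone from cholesterol, had 51 and 4 counts (-3.53, -4.92 to -2.14), and the glycolytic regulator PFKFB4 was at -1.74.

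Part of the calls of the 2B pair was shared with the other resistant line. In LN-OlapR against LNCaP, 713 of 15373 genes (4.64%) were 2-fold higher and 742 (4.83%) lower, 9.46% in all. Higher in both pairs were 122 genes, which is 17.8% of the higher genes of the 2B pair and 17.1% of those of the LN pair, and lower in both were 159 genes (18.1% and 21.4%). These shares count genes under the level of analysis in the LN pair. Of the 1245 called genes that were analyzed there, 281 (22.6%) had the same call, which is 24.5% of 498 higher and 21.3% of 747 lower genes. Opposite calls were held by 61 genes higher in 2B-OlapR and lower in LN-OlapR (8.9% and 8.2%) and by 63 genes lower in 2B-OlapR and higher in LN-OlapR (7.2% and 8.8%). In all, 405 genes were called in both pairs and 281 of them had the same direction. The difference between the pairs was not tested, as each has 1 library per line.

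**Figure D5:**
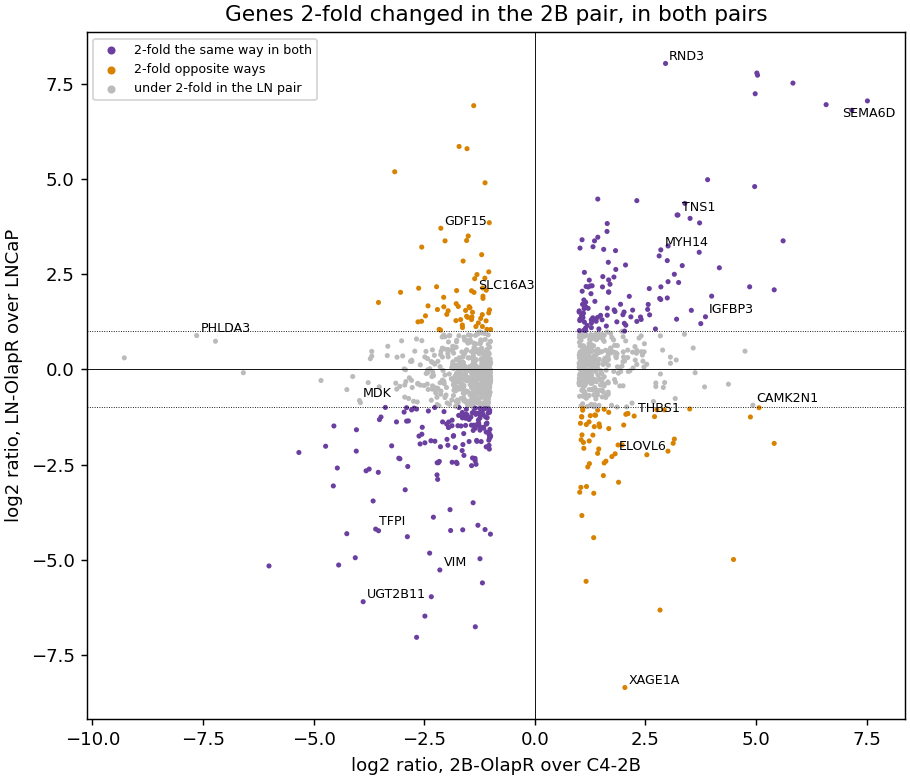
Log2 ratio in the 2B pair (horizontal) against that in the LN pair (vertical) for the genes called in the 2B pair and analyzed in both, without Y-linked genes; purple points are 2-fold changed the same way in both, orange points opposite ways, gray points under 2-fold in the LN pair. TNS1 (3.23 and 4.05) and MYH14 (2.85 and 3.14) stand high in both, UGT2B11 (-3.88 and -6.10) low in both, and GDF15 (-2.13 and 3.71) and ELOVL6 (1.81 and -2.22) have opposite signs.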

How the data were processed

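The authors made stranded mRNA libraries from 100 ng of RNA and deposited estimated counts per gene, not scaled between libraries. The submitters' processing notes name STAR, Partek and GRCh38 (hg38), while versions, the annotation release and whether counting used strand are not given in the sources used here. Of the values, 46.2% were not whole, and each of the 22637 genes summed to at least 10.0 over the 4 libraries, which held 19950537 to 26394267 counts. Estimated counts were rounded to whole counts and scaled with TMM factors over the 4 libraries (edgeR 4.0.16, R 4.3.3). The ratios, counting intervals (95%, normal approximation) and medians were computed in Python 3.11.15 with numpy 2.4.6 and pandas 2.3.3. With 1 library per group no model was fitted. GENCODE release 29 (GRCh38) gave positions, and where a symbol was listed more than once the first entry was used for lists. Counts were simulated for 15527 genes, with 200 of them changed 4-fold. All 200 were called, as were 21 of the unchanged genes. The simulation held counting error only and no difference between cultures, so it does not give the share of false calls in the real data.

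Genes were named by a rule: the 15 highest and 15 lowest ratios among genes with a symbol and a mean of at least 10 CPM, the on-off genes, and up to 6 members changed 2-fold in each of 50 gene lists. Y-linked genes, PINK1 and respiratory chain subunits were not described. A few other genes that the rule names, and 1 of the lists as a whole, are not reported here. Unchanged list members of known role, genes of the runs and the zinc finger family, KLK3, members beyond the first 6 of their lists (LAMB2, LAMC3, ITGA5, BTG2, IFIT2, OAS3, SCD, VLDLR and ID2) and the motif were chosen after values were seen. The members and lists were chosen with earlier results of these data known. Alternatives were total-count, DESeq2 1.42.0 and upper-quartile scaling, a pseudocount of 2, minimum means of 0.1 and 10 CPM, calls by the counting interval and, chosen after seeing the data, subtraction of the chromosome median and removal of Y-linked genes.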

Additional observations from a re-analysis of the deposited data

Results flagged for a closer look

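Of the named genes, 17 were at least 2-fold changed in opposite directions in the 2 resistant lines. Opposite calls were not peculiar to the named genes. Among all 1245 genes called in the 2B pair and analyzed in the LN pair, 61 were higher in 2B-OlapR and lower in LN-OlapR, and 63 the reverse. With 1 library per line the difference was not tested. Ratios are log2, for 2B-OlapR over C4-2B first and LN-OlapR over LNCaP second. Lower in 2B-OlapR and higher in LN-OlapR were CYP11A1 (-3.53 and 1.76), C2orf72 (-3.04 and 2.02), GDF15 (-2.13 and 3.71), SPRY4 (-2.06 and 1.64), a feedback inhibitor of MAPK signaling, SNAI2 (-1.52 and 1.37), a transcription factor of epithelial-mesenchymal transition, SLC16A3 (-1.38 and 2.02), a lactate exporter, TNS4 (-1.31 and 2.49), a tensin, and STING1 (-1.20 and 3.01), the adaptor of cytosolic DNA sensing. Higher in 2B-OlapR and lower in LN-OlapR were ENO2 (1.08 and -1.07), an enolase, SCD5 (1.44 and -2.09), ERAP2 (1.46 and -1.51), a peptidase of antigen presentation, TGFA (1.74 and -2.29), ELOVL6 (1.81 and -2.22), THBS1 (2.24 and -1.23), DUSP5 (2.76 and -1.06) and the cancer-testis antigens XAGE1A (2.03 and -8.36) and XAGE1B (1.16 and -5.57), which are copies of each other, so reads may have been divided between them. Several of these rest on few counts in 1 line: CYP11A1 had 4 counts in 2B-OlapR, STING1 had 8 in LNCaP, and XAGE1A had 1 in LN-OlapR. SLC16A3 was abundant in the C4-2B background, with 360 and 139 CPM in C4-2B and 2B-OlapR against 1.19 and 4.89 CPM in LNCaP and LN-OlapR.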

How the results depend on the processing

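Scaling by total counts, DESeq2 size factors or upper quartiles gave 638 to 723 higher and 844 to 963 lower genes, and moved the median ratio of all genes from -0.0003 to -0.042 with total counts and 0.025 with upper quartiles. The number called depended on the filter and call rule: a minimum mean of 0.1 CPM gave 1956 higher, 2220 lower and 926 with the same call in the LN pair, a minimum of 10 CPM gave 163, 256 and 56, and requiring the counting interval to lie past 2-fold gave 350, 448 and 132. The filter changes which genes can be called. Of 179 named genes with alternatives, 177 or 178 kept their call under each scaling and 178 with a pseudocount of 2, and 0 changed direction. FZD8 and TMPRSS2 fell short of 2-fold with total counts, PEG3 and BAX with upper quartiles, and PEG3 with DESeq2 size factors and the pseudocount. After subtraction of the chromosome median, 167 kept their call. No paired analysis was possible because each group has 1 library and no test was run, and for the same reason no replicate could be left out.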

Other observations

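Of 22 HOX genes, 2 were 2-fold higher and 1 lower, against 4.42% and 5.65% of all genes, too few to set the list apart. The higher ones were HOXC10, with 6 counts in C4-2B against 38 in 2B-OlapR (log2 ratio 2.55, 1.35 to 3.75), and HOXD13, with 14 and 78 counts (2.42, 1.61 to 3.23). Both are posterior HOX genes, which pattern the hind part of the embryo. Of 17 cadherins and protocadherins, 5 were higher and 3 lower, against the same shares of all genes. CDH7 was at 2.48 (10 and 59 counts) and CDH26 at -4.06 (90 and 5 counts). CDH26 was lower in LN-OlapR as well, at -4.95. LIF, a cytokine of the interleukin-6 family, had 44 counts in C4-2B against 4 in 2B-OlapR (-3.32, -4.72 to -1.93).

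Among 14 genes of drug transport and metabolism, 3 were higher and 3 lower, against 4.42% and 5.65% of all genes. ABCG1, a sterol exporter, was at 3.96 CPM in C4-2B and 11.0 CPM in 2B-OlapR (1.46, 1.10 to 1.83), NNMT, which methylates nicotinamide, at 2.74 and 5.89 CPM (1.10, 0.64 to 1.55), and NNMT was higher in LN-OlapR as well (1.47, 1.06 to 1.89). Of 19 imprinted and DNA methylation genes, 0 were higher and 5 lower, against the same shares of all genes. Among the lower ones were the cell cycle inhibitor CDKN1C (-1.95, -2.58 to -1.32) and the adaptor GRB10 (214 and 77.7 CPM; -1.46, -1.54 to -1.38). MT1X, a metallothionein, was at 63.4 and 24.9 CPM (-1.34, -1.49 to -1.20) and was also lower in LN-OlapR, at -1.02.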
